A study of Mus musculus with 7 samples.

Results

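Glucose production by the liver was described here through 10 genes: Pcx, Pck1, Pck2, Fbp1, G6pc, Slc37a4, Slc2a2, Pygl, Gys2 and Gcgr. They were chosen by name, because the activator given in the study acts on SIRT6, a sirtuin reported to repress gluconeogenesis. All 10 were found among the 54532 genes of the deposited table, and all 10 were among the 11394 genes tested. The samples were 7 liver libraries from old C57BL/6 mice. In 3 of them the animals had received the SIRT6 activator MDL-800 as a supplement and were on a standard diet, and in 4 control libraries the animals were on a standard diet. The sources used here give no dose, no feeding state and no time of collection, and they do not tie libraries to animals, so the p-values rest on library-to-library spread, which may be technical.

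The liver releases glucose made from lactate, amino acids and glycerol (gluconeogenesis) or from stored glycogen. In gluconeogenesis, pyruvate carboxylase (Pcx) makes oxaloacetate in mitochondria, phosphoenolpyruvate carboxykinase (Pck1 in the cytosol, Pck2 in mitochondria) turns it into phosphoenolpyruvate, and fructose-1,6-bisphosphatase (Fbp1) acts further up the chain. Glycogen phosphorylase (Pygl) and glycogen synthase (Gys2) break down and build the glycogen store. Both routes end at glucose-6-phosphate, which the transporter encoded by Slc37a4 carries into the endoplasmic reticulum, where the catalytic subunit encoded by G6pc removes the phosphate. The carrier GLUT2 (Slc2a2) passes glucose across the plasma membrane, and the glucagon receptor (Gcgr) signals fasting to the hepatocyte through cyclic AMP.

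The upstream sequences of Pck1, G6pc and Slc37a4 are shown because these genes encode a hormone-regulated entry step and both components of the exit step, and because Pck1 and G6pc are textbook targets of glucagon and insulin. Each run is the 250 bases before a RefSeq start (GRCm38.p6), at chr2:173152823-173153072, chr11:101367466-101367715 and chr9:44396696-44396945, all on the plus strand. Capitals mark matches, on either strand, to the cyclic AMP response element core TGACGT, the E-box CACGTG, the insulin response core TGTTTTG and the TATA box TATAAA.
Pck1: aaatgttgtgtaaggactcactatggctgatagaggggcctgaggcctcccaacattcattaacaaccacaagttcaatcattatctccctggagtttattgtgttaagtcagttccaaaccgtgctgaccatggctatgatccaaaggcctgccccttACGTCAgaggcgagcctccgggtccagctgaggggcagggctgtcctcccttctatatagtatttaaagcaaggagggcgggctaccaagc
G6pc: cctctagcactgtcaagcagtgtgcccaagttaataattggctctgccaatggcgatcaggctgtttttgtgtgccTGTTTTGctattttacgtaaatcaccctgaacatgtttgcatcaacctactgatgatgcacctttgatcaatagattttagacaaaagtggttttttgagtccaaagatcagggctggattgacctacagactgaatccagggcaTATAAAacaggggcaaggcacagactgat
Slc37a4: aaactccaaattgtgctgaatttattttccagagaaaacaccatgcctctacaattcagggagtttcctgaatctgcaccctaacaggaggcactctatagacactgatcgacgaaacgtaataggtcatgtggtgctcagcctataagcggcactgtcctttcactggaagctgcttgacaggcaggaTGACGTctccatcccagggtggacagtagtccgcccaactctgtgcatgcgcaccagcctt
These searched letters do not overlap in the windows shown. Pck1 held the TGACGT core in reverse orientation, beginning 91 bases before the start, and Slc37a4 held it in forward orientation at 61 bases. G6pc held TGTTTTG at 174 bases and TATAAA at 29 bases before its start, and no TGACGT. Of 32851 RefSeq windows of this length, 6.47% held TGACGT, 6.02% CACGTG, 5.56% TGTTTTG and 12.4% TATAAA. RefSeq windows were matched for 9 of the 10 genes, with 12 windows in all, and Gys2 was not matched. In the other windows, CACGTG was found 248 bases before the first start of Pcx, TGTTTTG at 159 bases in Pck2, the same TGACGT site of Slc37a4 at 214 bases before another of its starts, and TATAAA at 32 bases before the most downstream one.

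No gene of the group passed the test between MDL-800 and control livers, and the direction of the estimates was mixed. The test was limma on log2(FPKM + 1) with Benjamini-Hochberg adjustment over all 11394 genes and a threshold of 0.05, where FPKM is reads scaled to gene length and to a library denominator set by the authors. Across all genes tested 0% were called, so the count of 0 of 10 is the same as that background. At an unadjusted p under 0.05, limma gave 553 genes, of which 0 belonged to the group, and limma voom on recovered reads likewise called 0 of all genes, with 663 at an unadjusted p under 0.05. Of the 10 genes, 6 had a log2 fold change above 0 and 4 below 0, with a median of 0.36, against 6173 above and 5221 below 0 and a median of 0.02 over all genes tested. FPKM values are per listed gene length, which ran from 1702 bases (Fbp1) to 7806 bases (Pck2). Levels and ratios between genes below rest on these lengths. Whether the lengths match the transcripts present in liver was not tested, and a length listed too long would lower the FPKM. Markers of other liver cells also differed in sign between groups with none passing: 7 of 8 Kupffer cell and macrophage markers were below 0 (130.5 to 453.3 FPKM summed in MDL-800, 126.7 to 908.8 FPKM in control) and 7 of 8 stellate cell markers above 0 (102.4 to 154.3 FPKM in MDL-800, 42.7 to 122.5 FPKM in control). The low control end of the stellate sum was control 4 alone. Control 1 to 3, at 102.9, 114.5 and 122.5 FPKM, lay within the MDL-800 range. Control 4 was also lowest for the 8 sinusoidal endothelial markers, at 14.7 FPKM against 29.3 to 46.5 FPKM in the other libraries. None of these markers was at 0 in any library, and their part in the values was not tested.

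**Figure D1:**
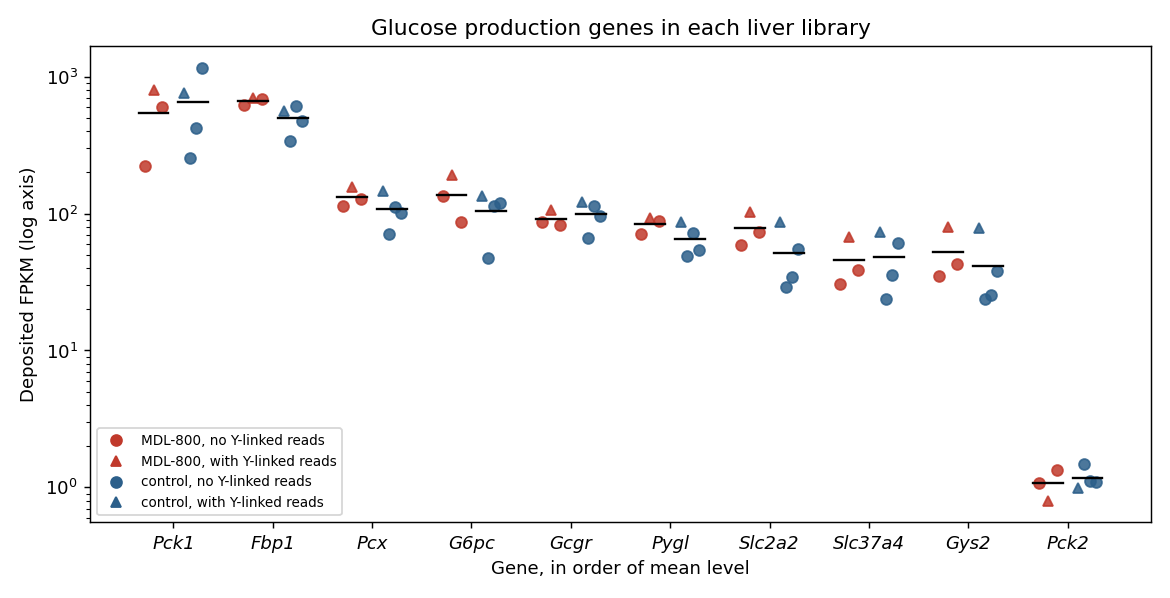
Deposited FPKM (log axis) of the 10 genes in each library, ordered by mean level, with MDL-800 left of control, bars at group means and triangles for the 2 libraries with Y-linked reads. Pck1 and Fbp1 average 606.2 and 571.0 FPKM, Pck2 1.13 FPKM, and the groups overlap for every gene except Fbp1.

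By mean level over the 7 libraries, Pck1 came first at 606.2 FPKM and Fbp1 second at 571.0 FPKM, but Pck1 was above Fbp1 in only 3 of 7 libraries. Next came Pcx and G6pc at 118.5 and 118.4 FPKM, with Pcx above G6pc in 3 of 7 libraries. Fbp1 exceeded Pcx, and Gys2 exceeded Pck2, in 7 of 7 libraries, and these were the only neighbours in the order that separated in every library. Gcgr averaged 96.2 FPKM, Pygl 73.7 FPKM, Slc2a2 62.9 FPKM, Slc37a4 47.4 FPKM and Gys2 46.1 FPKM over the 7 libraries. Pck2 was last at 1.13 FPKM.

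Pcx (ENSMUSG00000024892, chromosome 19, 4510472 to 4621752, GRCm38), which opens the pathway, was at 114.5, 157.0 and 127.0 FPKM in MDL-800 1 to 3, against 147.0, 71.3, 111.3 and 101.7 FPKM in control 1 to 4. The groups overlapped through control 1, which was above both MDL-800 1 and MDL-800 3. Its log2 fold change was 0.33 with a standard error of 0.25 and an interval (95% here and below) from -0.27 to 0.93 (limma adjusted p = 0.950), and it was 0.15 without control 2 and 0.21 without MDL-800 2.

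Pck1 (ENSMUSG00000027513, chromosome 2, 173153048 to 173159273), the cytosolic carboxykinase that is induced by fasting, had the widest spread of the group. It was at 223.3, 805.6 and 606.9 FPKM in MDL-800 1 to 3, against 760.2, 253.3, 425.0 and 1169 FPKM in control 1 to 4. Both the lowest library (MDL-800 1) and the highest (control 4) were far from the other libraries of their own group, and the highest was 5.24 times the lowest. The SD of Pck1 on the log2 scale over the 7 libraries was 0.89, larger than that of 94.7% of genes tested. The log2 fold change was -0.22 with a standard error of 0.63 and an interval from -1.70 to 1.27 (limma adjusted p = 0.971). It turned to 0.33 without MDL-800 1 and to 0.14 without control 4, so its sign rested on those libraries. Leaving out any other single library kept it below 0, from -0.60 without control 2 to -0.07 without control 1, and it was -0.63 with array weights.

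Pck2 (ENSMUSG00000040618, chromosome 14, 55540266 to 55551242), the mitochondrial form, was scarce in all libraries. It was at 1.08, 0.800 and 1.34 FPKM in MDL-800 1 to 3, against 0.980, 1.49, 1.10 and 1.09 FPKM in control 1 to 4. These values rest on 97 to 226 reads per library over a listed gene length of 7806 bases, and the gene shares exon sequence with an antisense gene, Gm10876, which is listed at 0 in every library. The range of MDL-800 held all but the highest control, and the log2 fold change was -0.07 with a standard error of 0.15 (interval -0.41 to 0.27, limma adjusted p = 0.966). It was 0.03 without MDL-800 2, and -0.13 with a standard error of 0.26 when 0.1 rather than 1 was added to FPKM.

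Set against each other within a library, which removes the library's scale, Pck1 was 207.7, 1007 and 454.4 times Pck2 per length in MDL-800 1 to 3, against 775.4, 170.2, 385.1 and 1068 times in control 1 to 4. The mean log2 ratio was 8.83 ± 1.14 in MDL-800 and 8.91 ± 1.18 in control (SD, n = 3 and 4), a difference of -0.08 that turned to 0.49 without MDL-800 1, 0.15 without control 1 and 0.30 without control 4. An exact two-sided permutation test over 35 assignments gave p = 0.971 (adjusted over the 3 ratios tested here, 0.971), where the smallest p that 35 assignments can give is 0.0286.

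Fbp1 (ENSMUSG00000069805, chromosome 13, 62864753 to 62888282, minus strand), the bisphosphatase that opposes phosphofructokinase, was the only one of the 10 whose groups did not overlap. It was at 620.9, 696.4 and 693.4 FPKM in MDL-800 1 to 3, against 561.7, 337.3, 609.7 and 477.5 FPKM in control 1 to 4. The lowest MDL-800 library and the highest control, control 3, were close to each other, at 620.9 and 609.7 FPKM. On the scale of summed recovered reads, these edges were 543.2 in MDL-800 and 490.5 in control, so the groups stayed apart. Groups did not overlap for 6.45% of all genes tested, and 1 of 10 is near that share. The mean was 670.2 ± 42.7 FPKM in MDL-800 and 496.5 ± 119.4 FPKM in control (SD, n = 3 and 4), and the log2 fold change was 0.46 with a standard error of 0.22 and an interval from -0.06 to 0.99. With an unadjusted p of 0.0748 and a limma adjusted p of 0.950, Fbp1 did not pass. The value was 0.29 without control 2, the library with the lowest Fbp1.

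G6pc (ENSMUSG00000078650, chromosome 11, 101367561 to 101377903), the last enzyme of both routes, was at 134.5, 193.0 and 86.5 FPKM in MDL-800 1 to 3, against 134.7, 47.3, 113.6 and 119.5 FPKM in control 1 to 4. MDL-800 2 was the highest and control 2 the lowest, and MDL-800 3 lay below 3 of the 4 controls. The log2 fold change was 0.44 with a standard error of 0.43 and an interval from -0.57 to 1.44 (limma adjusted p = 0.950), and it was 0.10 without control 2. Leaving out MDL-800 2 gave 0.16, and leaving out MDL-800 3 gave 0.73. With array weights it was 0.18.

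Slc37a4 (ENSMUSG00000032114, chromosome 9, 44396852 to 44402968), the partner transporter of G6pc, was at 30.8, 67.8 and 39.0 FPKM in MDL-800 1 to 3, against 73.4, 23.7, 35.9 and 61.6 FPKM in control 1 to 4. Its libraries did not follow their group: control 1, MDL-800 2 and control 4 were high and the other 4 low, much as for Pck1. The log2 fold change was -0.03 with a standard error of 0.44 and an interval from -1.07 to 1.01 (limma adjusted p = 0.992). It turned above 0, at 0.009, on the scale of summed recovered reads, and also without MDL-800 1 (0.21), MDL-800 3 (0.05), control 1 (0.21) or control 4 (0.12).

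Slc2a2 (ENSMUSG00000027690, chromosome 3, 28697903 to 28731359) had the largest log2 fold change of the 10, and it did not pass. It was at 58.9, 103.2 and 73.1 FPKM in MDL-800 1 to 3, against 86.7, 29.3, 34.2 and 55.3 FPKM in control 1 to 4. All 3 MDL-800 libraries were above 3 of the 4 controls, and control 1 was above MDL-800 1 and MDL-800 3. The log2 fold change was 0.69 with a standard error of 0.39 and an interval from -0.24 to 1.62 (limma adjusted p = 0.950), and it was 0.98 without control 1 and 0.47 without control 2.

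In the glycogen pair, Pygl (ENSMUSG00000021069, chromosome 12, 70190811 to 70231488, minus strand) was at 71.5, 93.2 and 88.7 FPKM in MDL-800 1 to 3, against 87.3, 49.2, 71.8 and 54.2 FPKM in control 1 to 4. Gys2 (ENSMUSG00000030244, chromosome 6, 142422613 to 142473109, minus strand) was at 35.2, 79.5 and 42.7 FPKM in MDL-800 1 to 3, against 78.4, 23.7, 25.3 and 37.9 FPKM in control 1 to 4. Both overlapped between groups, and for Gys2 1 library of each group was far above the rest. The log2 fold change was 0.39 with a standard error of 0.23 for Pygl (interval -0.15 to 0.92) and 0.42 with a standard error of 0.47 for Gys2 (interval -0.68 to 1.52), with a limma adjusted p of 0.950 for both. The Gys2 value was 0.66 when MDL-800 1 was dropped and 0.08 when MDL-800 2 was. Dropping control 1 gave 0.78, dropping control 2 gave 0.22 and dropping control 3 gave 0.25. With array weights it was 0.22. Per length, Pygl was 2.03, 1.17 and 2.08 times Gys2 in MDL-800 1 to 3, against 1.11, 2.07, 2.84 and 1.43 times in control 1 to 4. Pygl was thus above Gys2 in every library, and the mean log2 ratios of 0.77 ± 0.47 in MDL-800 and 0.81 ± 0.59 in control (SD, n = 3 and 4) differed by -0.04 (exact permutation p = 0.971, adjusted 0.971). That difference turned to 0.23 without MDL-800 2, 0.04 without control 2 and 0.19 without control 3.

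Gcgr (ENSMUSG00000025127, chromosome 11, 120530699 to 120538986), the receptor through which glucagon raises output, was at 87.0, 105.5 and 83.0 FPKM in MDL-800 1 to 3, against 121.9, 66.7, 113.1 and 96.6 FPKM in control 1 to 4. All 3 MDL-800 values lay within the control range. The log2 fold change was -0.09 with a standard error of 0.23 and an interval from -0.63 to 0.45 (limma adjusted p = 0.970), and it was 0.02 without control 1.

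**Figure D2:**
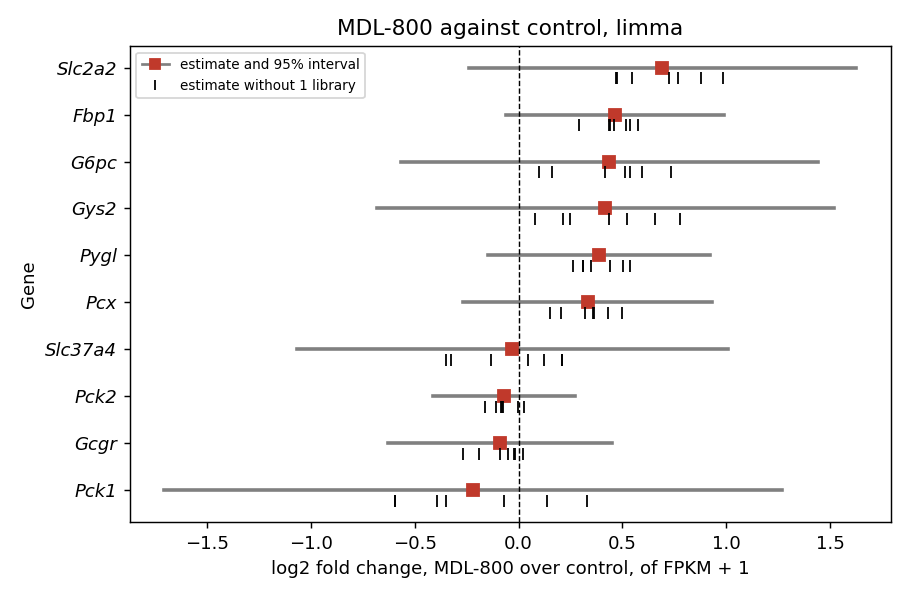
Log2 fold change of FPKM + 1, MDL-800 over control, for each gene, with 95% intervals as lines and the estimates without 1 library as ticks. Every interval includes 0, from -1.70 to 1.27 for Pck1 to -0.06 to 0.99 for Fbp1.

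Most of the 10 genes were high, or low, in the same libraries. Control 2 was the lowest library for 8 of the 10 genes, all but Pck1 and Pck2, and MDL-800 2 was the highest for 6. The share of all genes highest in MDL-800 2 was not computed, so the 6 has no background to be read against. Control 2 was the lowest library for 27.8% of all genes tested. On the scale of summed recovered reads it was lowest for 5 of the 10 and for 6.93% of all genes tested. The summed recovered reads were 0.995 times the deposited denominator in control 2, the lowest ratio of the 7 libraries, and 1.28 times in MDL-800 2, the highest. Control 2 also had the most summed FPKM of the 8 Kupffer cell and macrophage markers, 908.8 against 126.7 to 402.7 in the other controls and 130.5 to 453.3 in MDL-800. It likewise held the most of the 6 neutrophil markers, 337.0 FPKM against 13.1 to 93.6 FPKM in MDL-800 and 27.0 to 50.5 FPKM in the other controls, and of the 5 red blood cell markers, at 807.4 FPKM. None of these markers was at 0 in control 2, and their part in the low values was not tested. The 8 hepatocyte markers summed to 58824 FPKM in control 2, against 58189, 70198 and 87735 FPKM in control 1, 3 and 4 and 59751 to 60677 FPKM in MDL-800. That sum is mostly Alb, at 41935 FPKM in control 2. Tdo2, Cps1, Hpd and Serpinc1 were each lowest of the 7 libraries in control 2, at 79.6, 273.5, 703.6 and 279.8 FPKM. Alb, Ttr, Apoa1 and Ahsg were not lowest there. In such bulk libraries, fewer hepatocytes and less of a transcript per hepatocyte cannot be told apart.

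**Figure D3:**
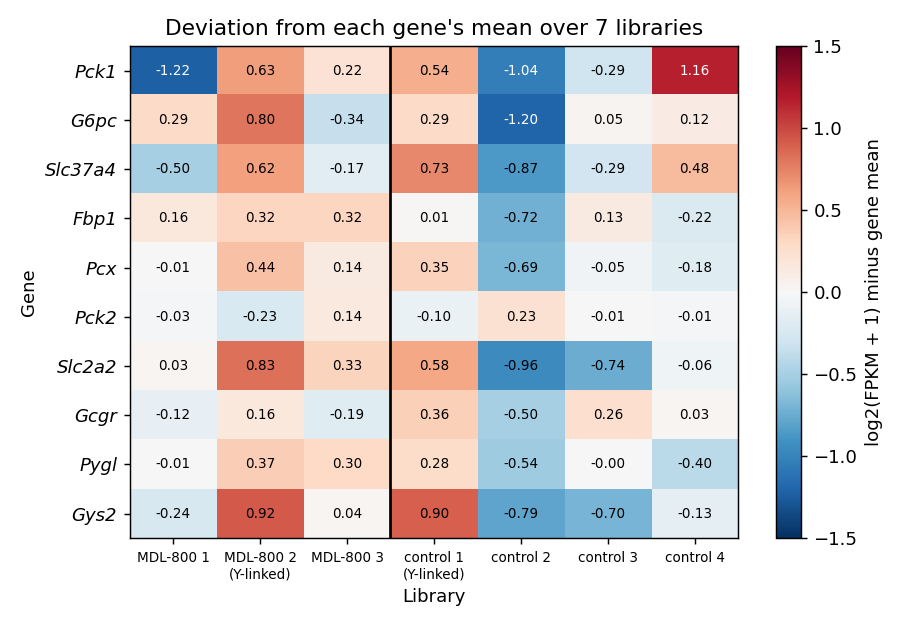
Deviation of log2(FPKM + 1) from each gene's mean over the 7 libraries, with MDL-800 left of the line and control right of it. Control 2 is below the mean for every gene but Pck2, and MDL-800 2 and control 1, which hold Y-linked reads, are above it for every gene but Pck2.

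MDL-800 2 and control 1, 1 library of each group, held 3514 and 2173 reads summed over Ddx3y, Eif2s3y, Kdm5d and Uty, which lie on the Y chromosome, and the other 5 libraries held 0. The labels used here give no sex. In the 2 libraries with Y-linked reads, Slc37a4, Pcx, Slc2a2, Gys2 and, by a small margin, G6pc were above all 5 others. Pck2 was below all 5. Together these are 6 of 10 genes without overlap, where 32.8% of all genes tested showed none. On the scale of summed recovered reads they were 5 of 10, where G6pc overlapped and the share of all genes was 26.9%. With a limma term for Y-linked reads beside the group, Gys2 was the only gene of the 10 to pass, against 2.42% of all genes tested. Gys2 was at 79.5 and 78.4 FPKM with Y-linked reads, against 23.7 to 42.7 FPKM without. Its log2 difference was 1.24 with a standard error of 0.22 (limma adjusted p = 0.0489). The adjusted p of Gys2 ran from 0.0341 to 0.512 over 14 alternatives and stayed under the threshold in 3 of them, and leaving out any single library but control 4 ended the call, while the log2 difference kept its sign, from 1.02 to 1.44. It did not pass, at 0.0576, with each library scaled to the same median. Slc37a4, Slc2a2 and Pck1 had log2 differences of 0.95, 0.92 and 0.85, with standard errors of 0.34, 0.27 and 0.65 (limma adjusted p = 0.181, 0.134 and 0.460). Fbp1 had 0.19 with a standard error of 0.24 (limma adjusted p = 0.663).

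**Figure D4:**
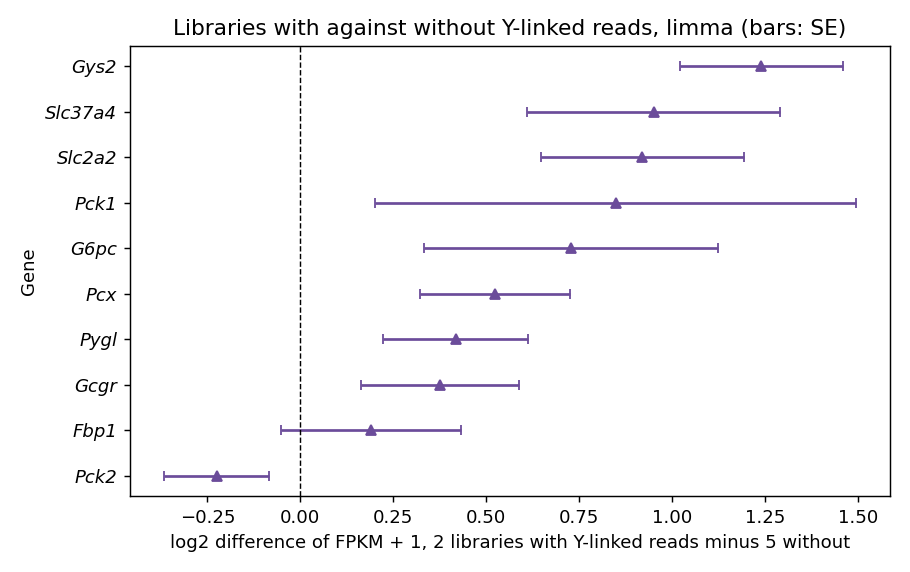
Log2 difference of FPKM + 1 between the 2 libraries with Y-linked reads and the 5 without, from the limma fit that also holds the group, with standard errors. Gys2 lies highest at 1.24, and Pck2 alone lies below 0.

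The same 2 libraries differed in 2 of 11 tested clock genes, whose level depends on the time of day, where 2.42% of all genes tested passed. Dbp was higher (log2 difference 3.74, limma adjusted p = 0.00246) and Arntl, which encodes BMAL1, lower (-0.92, adjusted p = 0.0401) with Y-linked reads. Nr1d1, the clock repressor REV-ERBalpha, was at 41.6 and 40.8 FPKM with Y-linked reads, against 1.70 to 21.3 FPKM without, and did not pass (log2 difference 2.30, limma adjusted p = 0.111). Kupffer cell and macrophage markers summed to 130.5 FPKM in MDL-800 2 and 126.7 FPKM in control 1, the lowest of their groups, with none of the 8 at 0. The parts that sex, collection time and cell makeup have in these differences were not tested, and with 2 libraries they cannot be told apart. Within the 5 libraries without Y-linked reads (2 of MDL-800, 3 of control), the group log2 fold changes were 0.77 for Slc2a2, 0.51 for Fbp1, 0.46 for Pygl, 0.44 for Gys2 and -0.44 for Pck1, and none passed (limma adjusted p from 0.914 to 0.992 over the 10 genes).

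The liver label held against its markers. The 8 hepatocyte markers, led by Alb, summed to 59751 to 60677 FPKM in MDL-800 and 58189 to 87735 FPKM in control. Markers of the kidney proximal tubule, the other main site of gluconeogenesis, summed to at most 0.0962 FPKM in MDL-800 and 0.229 FPKM in control, with Slc5a2 listed at 0 in every library. Close paralogs of the 10 genes were scarce: of 12, 5 reached the minimum mean of 1 FPKM and were tested, and Slc2a9, a urate carrier, was the highest at 10.8 ± 1.93 FPKM in MDL-800 and 10.5 ± 1.81 FPKM in control (SD, n = 3 and 4).

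Genes around the pathway were taken from lists, and no listed gene passed in either direction. Among 5 glycolytic genes that oppose glucose output, 5 had a log2 fold change above 0, with a median of 0.29. Liver pyruvate kinase, Pklr, was at 82.0, 112.7 and 122.8 FPKM in MDL-800 1 to 3, against 73.9, 32.4, 61.4 and 44.3 FPKM in control 1 to 4, with no overlap. Its log2 fold change was 1.03 with a standard error of 0.30 (unadjusted p = 0.0108, limma adjusted p = 0.950). Groups did not overlap for 2 of these 5 genes, against 6.45% of all genes tested. Pklr and most genes named from the lists below were picked by a small p in these same data. That choice favours genes without overlap, so their lack of overlap adds no support.

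Of 15 other genes of glycogen synthesis and breakdown, 14 were above 0, with a median of 0.19. Epm2a, which encodes the glycogen phosphatase laforin, was at 2.54, 3.07 and 3.02 FPKM in MDL-800 1 to 3, against 1.57, 1.88, 1.91 and 1.82 FPKM in control 1 to 4. Groups did not overlap for 2 of the 15, Epm2a and Ppp1r3g, against 6.45% of all genes tested. The log2 fold change of Epm2a was 0.47 with a standard error of 0.10 (limma adjusted p = 0.950). The branching enzyme Gbe1 had 0.89 with a standard error of 0.31, Ugp2, which makes UDP-glucose, 0.81 with 0.35, and Ppp1r3g, a glycogen-targeting phosphatase subunit, 1.42 with 0.47. Ppp1r3g was at 5.57 FPKM in MDL-800 2 and 0.451 FPKM in MDL-800 1, close to the 0.435 FPKM of control 1, so that the MDL-800 libraries were far apart. Of 14 genes listed with the steps that glycolysis and gluconeogenesis share, 9 were above 0, with a median of 0.10. The list also holds Mdh1, Mdh2, Got1, Got2, Gpd1 and Gk, which are not steps of glycolysis itself. Gapdh was at 0.770 to 1.31 FPKM in MDL-800 and 0.871 to 2.50 FPKM in control 1, control 3 and control 4, but at 22.3 FPKM in control 2. Gapdh has many processed pseudogenes, so the reads assigned to it are uncertain. Glycerol kinase, Gk, showed 0.45 on the log2 scale (standard error 0.18).

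In mouse liver SIRT6 has been reported to act on the acetyltransferase encoded by Kat2a, which modifies the coactivator encoded by Ppargc1a, an inducer of Pck1 and G6pc. Of 24 tested transcription regulators of the pathway, 13 were above and 11 below 0, with a median of 0.03. Kat2a was at 5.41, 5.20 and 4.50 FPKM in MDL-800 1 to 3, against 5.45, 6.01, 5.56 and 5.55 FPKM in control 1 to 4, and its log2 fold change was -0.14 with a standard error of 0.09 (limma adjusted p = 0.950). The groups did not overlap for Kat2a in deposited FPKM, though MDL-800 1 and control 1 nearly met, at 5.41 and 5.45 FPKM. Of all genes tested, 6.45% showed no overlap. Summed recovered reads were 1.06 times the deposited denominator in MDL-800 1 and 1.25 times in control 1, so on that scale the Kat2a groups overlapped. Ppargc1a, named for this background and not by the rule, was at 1.90, 2.43 and 2.13 FPKM in MDL-800 1 to 3, against 1.76, 1.36, 1.19 and 2.48 FPKM in control 1 to 4. Sirt6 itself ran from 1.46 to 1.995 FPKM in MDL-800 and from 1.57 to 1.83 FPKM in control. Of 18 tested genes of glucagon and insulin signalling, 14 were above 0, with a median of 0.07. Adcy9, an adenylyl cyclase, showed 0.58 on the log2 scale (standard error 0.15) and Irs1, an insulin receptor substrate, 0.37 (standard error 0.12), and neither passed (limma adjusted p = 0.950).

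Likeness to Pck1 and to G6pc was measured as the root mean square difference between centred log2(FPKM + 1) values over the 7 libraries, among 3770 other genes averaging 10 FPKM or more. The genes most like Pck1 were Lurap1l at 0.379, 1810055G02Rik at 0.381 and Errfi1 at 0.395, where the SD of Pck1 itself was 0.889 on the same scale. Lurap1l was at 13.8, 26.3 and 19.0 FPKM in MDL-800 1 to 3, against 32.0, 10.5, 17.4 and 31.2 FPKM in control 1 to 4, low in MDL-800 1 and control 2 as Pck1 was. The genes most like G6pc were Gm9826 at 0.260, Gstt2 at 0.263 and Slc10a1, the bile acid carrier NTCP, at 0.283. No other gene of the 10 was among these.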

How the data were processed

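RNA was measured in 7 mouse liver libraries, 3 MDL-800 and 4 control. Per the labels' protocols, lysed tissue gave SMARTer cDNA, which was sheared and built into libraries that do not mark strand. The authors deposited FPKM values per gene. TopHat2 2.0.14, Bowtie2 2.1.0, Cufflinks 2.2.1 and build mm9 are named per the submitters' processing notes, but coordinates matched GRCm38 (53756 of 54409 identifiers shared with GENCODE M21 start at the same base) and are given as such.

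FPKM times gene length gave whole reads (100% of nonzero values within 0.01), which summed to 17600066 to 19920469 per library. The main test was limma 3.58.1 (R 4.3.3; trend, two-sided) on log2(FPKM + 1), which understates changes of low genes, for genes averaging 1 FPKM or more. Ratios of 3 gene pairs were tested by exact permutation, of which 1 is not reported here. The test was checked on simulated data.

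The genes, lists and tests were chosen with earlier results of these data known. Named genes were the 10 genes and, per list, the 3 with the smallest p and the most abundant. From the cell type lists and the sex list only those bearing on a result are named, and other genes taken by the rule are not all described. Dbp, Arntl, Kdm5d, Eif2s3y, Uty, Slc5a2, Sult2a1 and Cyp4a12a were named after their values were seen. So were Tdo2, Cps1, Hpd, Serpinc1, Ttr, Apoa1, Ahsg, Marco, Timd4 and Alas2. Alternatives were other pseudocounts, filters, scalings and weights, voom, a replicate block, a term for Y-linked reads, the libraries without them, and leaving out each library. The test of Y-linked reads and its alternatives were added after seeing the data. Plots used matplotlib 3.10.9 (Python 3.11.15).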

Additional observations from a re-analysis of the deposited data

How the results depend on the processing

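None of the 10 genes was called between MDL-800 and control under any of 18 alternatives, and 0 or 1 gene of all tested was called when a library was left out, 1 without MDL-800 1 and 1 without control 1. Slc2a2, Fbp1, G6pc, Gys2, Pygl and Pcx kept a log2 fold change above 0 under every alternative. Pck1 turned above 0 with the replicate block on libraries 1 to 3, which drops control 4 (0.14) and ran from -0.60 to 0.33 when a library was left out. Slc37a4 turned with summed reads as the denominator (0.0090) and with the replicate block (0.12), and ran from -0.35 to 0.21 without single libraries. Pck2 turned to 0.0063 with array weights and ran from -0.16 to 0.028, and Gcgr ran from -0.27 to 0.021, when a library was left out. Pck2 has no value at a mean of at least 5 FPKM. Pck1 over Pck2 turned to 0.30 with the replicate block and ran from -0.65 to 0.49 without single libraries. Pygl over Gys2 turned to 0.015 in the libraries without Y-linked reads and ran from -0.26 to 0.23 without single libraries. The cause of these turns was not tested.

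The count of genes that passed with Y-linked reads, 1 (Gys2), was 0 without a filter on low values, with each library scaled to the same median, with quantile normalization, with summed reads as the denominator and with voom, and was 0 to 1 when a library was left out (1 only without control 4). Same-numbered libraries were not alike: their deviations correlated at -0.58, -0.61 and 0.13 over genes. MDL-800 2 and control 1, which hold Y-linked reads, correlated at 0.76, and this difference weighs on the other values. Whether the numbers mark a pairing therefore cannot be told from these correlations, and the block says nothing about a weaker effect. With 3 and 4 libraries, log2 intervals of the 10 genes spanned from 0.68 (Pck2) to 2.97 (Pck1), so moderate changes were not detectable. The narrow Pck2 interval depended on the pseudocount of 1. The standard error of Pck2 was 0.15 in the main test, 0.26 with a pseudocount of 0.1 and 0.27 with voom.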

Other observations

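Genes that bring substrate to glucose production had values mostly above 0 in MDL-800 against control. Of 14, 11 had a log2 fold change above 0, with a median of 0.18, and none passed. Slc25a11, the mitochondrial oxoglutarate and malate carrier, was at 45.4, 46.4 and 41.3 FPKM in MDL-800 1 to 3, against 38.3, 35.8, 37.8 and 33.0 FPKM in control 1 to 4, without overlap (log2 fold change 0.29, standard error 0.11, limma adjusted p = 0.950). It was named for its small p and was the 1 gene of the 14 without overlap, against 6.45% of all genes tested. Gpt2, a mitochondrial alanine transaminase, had 0.56 with a standard error of 0.23. Tat, the glucocorticoid-induced tyrosine aminotransferase, was the most abundant of the list and varied within both groups, at 239.9 to 775.5 FPKM in MDL-800 and 294.2 to 929.2 FPKM in control.

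Gluconeogenesis is carried out mainly by periportal hepatocytes. Of 8 periportal markers 4 were above and 4 below 0 (median log2 fold change 0.09), and of 8 tested pericentral markers likewise 4 and 4 (median -0.01). Hsd17b13, a periportal lipid droplet protein gene, was at 313.3 ± 90.8 FPKM in MDL-800 and 169.8 ± 71.1 FPKM in control (SD, n = 3 and 4), and did not pass (log2 fold change 0.94, standard error 0.37, limma adjusted p = 0.950). Slc37a1, a phosphate-linked glucose-6-phosphate exchanger related to Slc37a4, was at 0.878, 0.692 and 1.26 FPKM in MDL-800 1 to 3, against 1.48, 2.79, 7.69 and 4.55 FPKM in control 1 to 4, without overlap (log2 fold change -1.26, standard error 0.40, limma adjusted p = 0.950). It too was named for its small p, and was the 1 of 5 tested paralogs without overlap, against 6.45% of all genes tested.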
